A study of Mus musculus with 12 samples.

Results

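The genes described here encode the subunits of the respiratory chain and of the mitochondrial ATP synthase. They were chosen by name and position from the annotated gene table, and a name does not by itself show that a gene encodes a structural subunit. Every protein-coding gene of the mitochondrial chromosome was taken, together with nuclear protein-coding genes whose names begin with Nduf followed by a, b, s, c or v, with Sdh followed by a to d, with Uqcr, Cyc1, Cox4 to Cox8 or Atp5. The assembly factors named Ndufaf were left out. The rule gave 100 of the 54532 genes in the table, 13 of them encoded by mitochondrial DNA and 87 by nuclear DNA. All 13 mitochondrial genes and 80 of the 87 nuclear genes had enough counts to be tested. The rule uses no measured change, but it was set with earlier results of these data known.

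The respiratory chain sits in the inner mitochondrial membrane and passes electrons from NADH and succinate to oxygen. Complex I oxidises NADH, complex II (succinate dehydrogenase) oxidises succinate and is also an enzyme of the tricarboxylic acid cycle, complex III passes the electrons to cytochrome c, and complex IV (cytochrome c oxidase) reduces oxygen. Complexes I, III and IV pump protons, and complex V, the ATP synthase, uses the proton gradient to make ATP. Complex II is built from nuclear-encoded subunits only, whereas the other complexes combine subunits from both genomes, so their assembly draws on transcripts made in different compartments. In macrophages activated with lipopolysaccharide (LPS), a component of the outer membrane of Gram-negative bacteria that signals through Toll-like receptor 4, metabolism is known to shift toward glycolysis, with succinate oxidation by complex II linked to inflammatory signalling.

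RNA was sequenced from 12 libraries of bone marrow-derived macrophages, 3 in each of 4 groups, grown from the marrow of mice aged 8 weeks with macrophage colony-stimulating factor at 10 ng/ml. The control groups were Hdac3f/f, in which the gene for the histone deacetylase HDAC3 is flanked by loxP sites but Cre is absent. The other groups, Lyz2-Cre-Hdac3f/f, add a Cre recombinase driven from the Lyz2 locus, active in myeloid cells, so all 4 groups carried the floxed Hdac3. Cells of each genotype stayed for 4 h in culture medium alone (untreated) or in medium with LPS at 500 ng/ml. The labels do not say whether the 3 libraries of a group came from separate animals, so p-values measure the spread between these libraries, which may be technical.

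Libraries held 16553432 to 18706990 counted reads. Hdac3 was at 33.1 to 40.7 CPM across the 12 libraries, where CPM are counts scaled to a common library size. It was not called different between genotypes, with log2 differences of -0.14 in untreated cells (adjusted p = 0.352) and -0.09 under LPS (adjusted p = 0.473). That count covers the whole gene and not the floxed exons alone, so it does not check the genotype labels. One library stood apart: the untreated Lyz2-Cre-Hdac3f/f replicate 1 had 31.0 CPM of Lyz2, against 5181 and 5637 CPM in the other 2 libraries of its group and 9318 to 12350 CPM in the 6 control libraries. Calls that were lost without this library are named below. The summed level of 8 macrophage markers was 14160 to 17470 CPM in untreated and 21040 to 23000 CPM in LPS-treated control libraries, and 5906 to 11270 and 17780 to 19110 CPM in the Lyz2-Cre-Hdac3f/f libraries. Lyz2, the locus that drives the Cre, is one of the 8. Alone it was at 9318 to 11990 CPM in untreated control and 31.0 to 5637 CPM in untreated Lyz2-Cre-Hdac3f/f libraries. The sum therefore does not compare the other macrophage markers between genotypes. The summed level of 5 stromal markers (Col1a1, Col1a2, Col3a1, Pdgfrb and Cxcl12) differed with genotype, at 281 to 1671 CPM over the 6 control libraries and 14.6 to 129 CPM over the 6 Lyz2-Cre-Hdac3f/f libraries, and none of the 5 was at 0 in any group. In bulk RNA a smaller number of cells of a type and less RNA per cell cannot be told apart.

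The 13 mitochondrial genes were counted at very unequal depth, and their sequences differ in how much they share with other annotated transcripts. Chromosome 1 of the mouse carries a stretch of mitochondrial DNA, annotated as pseudogenes between positions 24611535 and 24616197 on the minus strand in GRCm38. The stretches below, from the GENCODE M21 transcripts on GRCm38, are shown because they differ in that respect; each is 80 bases, 5′ to 3′, and capitals mark bases lying in a run of 50 bases that also occurs in another annotated transcript.
mt-Co2, MT:7315-7394: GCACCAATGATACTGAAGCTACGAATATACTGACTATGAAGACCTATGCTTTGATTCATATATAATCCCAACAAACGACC
mt-Nd4, MT:11003-11082: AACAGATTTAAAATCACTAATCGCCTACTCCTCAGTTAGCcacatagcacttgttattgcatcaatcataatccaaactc
mt-Co1, MT:5749-5828: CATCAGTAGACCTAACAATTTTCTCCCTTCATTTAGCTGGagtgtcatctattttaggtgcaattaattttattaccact
mt-Cytb, MT:14677-14756: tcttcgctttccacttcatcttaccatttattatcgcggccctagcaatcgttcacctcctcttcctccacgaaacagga

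The mt-Co2 stretch is in capitals from end to end, the mt-Nd4 and mt-Co1 stretches each lie across an edge of shared sequence, and the mt-Cytb stretch has no shared base. Over whole genes, 100% of the 50-base windows of mt-Co2 were shared, 99.9% of those of mt-Co3, 99.5% of mt-Atp6, 98.8% of mt-Nd4l and 98% of mt-Nd3. These 5 genes summed to 254 to 2350 counts over the 12 libraries. The shared share was 62.2% for mt-Nd4, 51.1% for mt-Co1, 8.19% for mt-Nd2, 7.61% for mt-Nd5 and 0% for mt-Nd1, mt-Cytb and mt-Nd6, and these 7 genes summed to 20846 to 952673 counts. mt-Atp8, which encodes a small ATP synthase subunit, had 83 counts in all and no window shared with an annotated transcript. Only annotated transcripts were searched. The annotated chromosome 1 copies of mt-Atp6 and mt-Co2 leave a gap between 24614651 and 24614885. Whether that gap holds mt-Atp8 sequence was not tested. The pseudogenes had few counts of their own, from 50 for Gm28438 to 1255 for Gm29216. How reads with several hits were treated is not given in the sources used here, and its part in these levels was not tested. The levels of mt-Co2, mt-Co3, mt-Atp6, mt-Nd3, mt-Nd4l and mt-Atp8 are therefore printed as counted and are uncertain, and results over mitochondrial genes rest mainly on the other 7. Of those 7, mt-Nd4 and mt-Co1 are shared in part, so their levels per kb are uncertain too. Nuclear subunits share windows with other annotated genes as well. Of the 80 tested, 33 shared none, 23 at most 10%, 23 over 10% to 50%, and 1, Atp5l, 84.8%. Uqcrb was at 43.4%, Atp5g2 at 38.3%, Cox5a at 32%, Ndufa12 at 26.2%, Cox7c at 23% and Cox5b at 21.8%. The part of this in their counts was not tested.

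**Figure D1:**
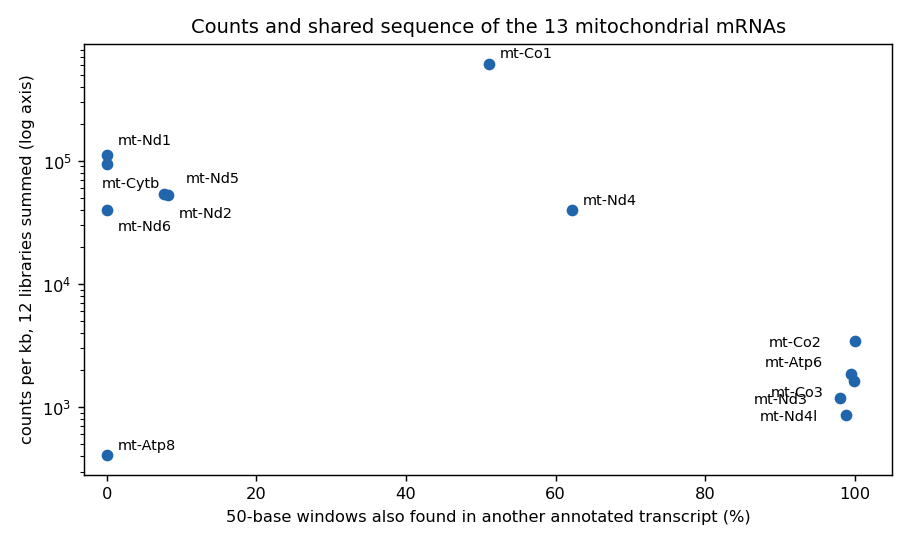
Counts of the 13 mitochondrially encoded genes, summed over the 12 libraries and divided by gene length in kb (y axis, log scale), against the percent of each gene's 50-base windows that also occur in another annotated transcript (x axis); each point is 1 gene. The 5 genes at 98% or above lie at 855 to 3436 counts per kb, and mt-Nd4 and mt-Co1, at 62.2% and 51.1%, lie at 39670 and 616617.

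Per kb of gene length, mt-Co1, the catalytic subunit of complex IV, had the highest level of all mitochondrial genes in untreated control cells, at 3118 CPM per kb. It was followed by mt-Nd1 at 654 and mt-Cytb at 549 CPM per kb, the first a membrane subunit of complex I and the second the cytochrome b of complex III. On this scale the nuclear subunit Cox6a1 of complex IV, at 507 CPM per kb, was close to mt-Cytb, and the catalytic ATP synthase subunit Atp5b was at 131 CPM per kb. The 13 mitochondrial genes together took 0.865% ± 0.0807 of all counts in untreated control libraries, 0.513% ± 0.0298 in LPS-treated control libraries, 0.687% ± 0.0482 in untreated and 0.562% ± 0.0431 in LPS-treated Lyz2-Cre-Hdac3f/f libraries (SD, n = 3 each). The 87 nuclear genes took 0.751% ± 0.0654, 0.543% ± 0.0480, 0.685% ± 0.0329 and 0.579% ± 0.0317 in the same order (SD, n = 3 each). Both shares were lower with LPS in each genotype without overlap between libraries, and these shares of the library total are not scaled for composition.

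With LPS, nuclear subunits moved in different directions by complex, while no mitochondrially encoded subunit passed the test in either genotype. In control cells 18 of the 80 nuclear subunits rose and 9 fell, against 28.0% of the 14286 tested genes that rose and 32.1% that fell. In Lyz2-Cre-Hdac3f/f cells 13 rose and 8 fell, against 25.2% and 27.7% of all tested genes. The share of nuclear subunits called in either direction, 33.8% and 26.2%, was below that of all genes, 60.1% and 52.9%. For the nuclear subunits of complexes I to V it was 22.2%, 50%, 22.2%, 76.9% and 29.4% in control cells. In Lyz2-Cre-Hdac3f/f cells it was 13.9%, 75%, 11.1%, 46.2% and 29.4%. The counts per complex below stand against the same shares of all genes. All 16 subunits called in both genotypes, of 27 and 21, changed with the same sign. None of the 13 mitochondrial genes was called by edgeR's quasi-likelihood test in either genotype, with 0 at an unadjusted p under 0.05 and 0 by DESeq2.

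Many of these calls rest on single libraries. Leaving out 1 library at a time gave 8 to 26 nuclear subunits higher and 5 to 16 lower in control cells, and 0 to 3 mitochondrial genes lower there. The rises of Atp5b, Atp5g3, Atp5j, Cox5a, Cox5b, Cox6c, Cox7a2 and Ndufs4 and the falls of Atp5s, Cox6a2, Ndufs1, Sdha and Sdhd, 8 and 5 in all, kept their calls in control cells whichever library was left out. In Lyz2-Cre-Hdac3f/f cells the same held for 5 rises, of Atp5b, Atp5j, Cox7a2, Ndufs4 and Uqcrb, and for 2 falls, of Atp5s and Sdha. Without the untreated library that stood apart 7 nuclear subunits rose and 4 fell in that genotype. The calls lost there were those of Atp5g3, Atp5k, Cox6a1, Cox6c, Ndufa1, Ndufa4, Ndufab1, Ndufs7, Sdhb and Sdhd.

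These LPS responses depend on the scaling of the libraries. With the TMM scaling used for the calls, the median log2 change over all tested genes was -0.08 in control and -0.08 in Lyz2-Cre-Hdac3f/f cells; with library totals alone it was -0.72 and -0.46. Under library totals 0 nuclear subunits rose and 58 fell in control cells, and 1 rose and 38 fell in Lyz2-Cre-Hdac3f/f cells. Of all 14286 tested genes, 2086 rose and 8242 fell in control and 2109 rose and 6463 fell in Lyz2-Cre-Hdac3f/f cells under this scaling. Of the 13 mitochondrial genes 12 and 9 fell under library totals. The directions given below are therefore relative to the bulk of the transcriptome. The nuclear complex IV subunits had a median 0.56 above that of all genes in control and 0.40 above it in Lyz2-Cre-Hdac3f/f cells with TMM, and 0.56 and 0.39 above it with library totals.

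In complex II, Sdha fell most with LPS. Sdha, the flavoprotein that oxidises succinate, lies on the minus strand at chr13:74322254-74350280 in GRCm38. It had 273, 252 and 234 CPM in untreated and 144, 128 and 129 CPM in LPS-treated control libraries, and 287, 283 and 279 against 154, 154 and 138 CPM in Lyz2-Cre-Hdac3f/f libraries. Every LPS-treated library was below every untreated one, in both genotypes. The log2 change was -0.92 ± 0.09 (SE) in each genotype (adjusted p = 2.09e-06 and 2.88e-06), it kept its call under every alternative run, and the difference between the genotypes' responses was -0.00 ± 0.13 (adjusted p = 0.997).

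Sdhd, a membrane anchor of complex II on the minus strand at chr9:50596357-50603812, had 86.7, 103 and 119 CPM in untreated and 59.8, 75.7 and 74.8 CPM in LPS-treated control libraries. In Lyz2-Cre-Hdac3f/f libraries it had 114, 94.6 and 112 CPM untreated and 69.6, 77.5 and 88.4 CPM with LPS. The libraries did not overlap in either genotype, and the log2 changes were -0.55 ± 0.14 (adjusted p = 0.00433) and -0.44 ± 0.14 (adjusted p = 0.0182). Sdhb, the iron-sulfur subunit, fell in Lyz2-Cre-Hdac3f/f cells by 0.45 on the log2 scale (SE 0.15, adjusted p = 0.0213), from 150, 136 and 155 to 99.8, 106 and 117 CPM. Its value in control cells was -0.20 ± 0.15 (adjusted p = 0.272), with overlapping libraries. In Lyz2-Cre-Hdac3f/f cells the calls of Sdhb and Sdhd were each lost without any of 4 single libraries. Sdhc, the other anchor, was not called, at 0.08 (adjusted p = 0.655) and 0.11 (adjusted p = 0.576). Thus 2 of the 4 complex II genes fell in control cells and 3 of 4 in Lyz2-Cre-Hdac3f/f cells, with medians of -0.38 and -0.45.

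**Figure D2:**
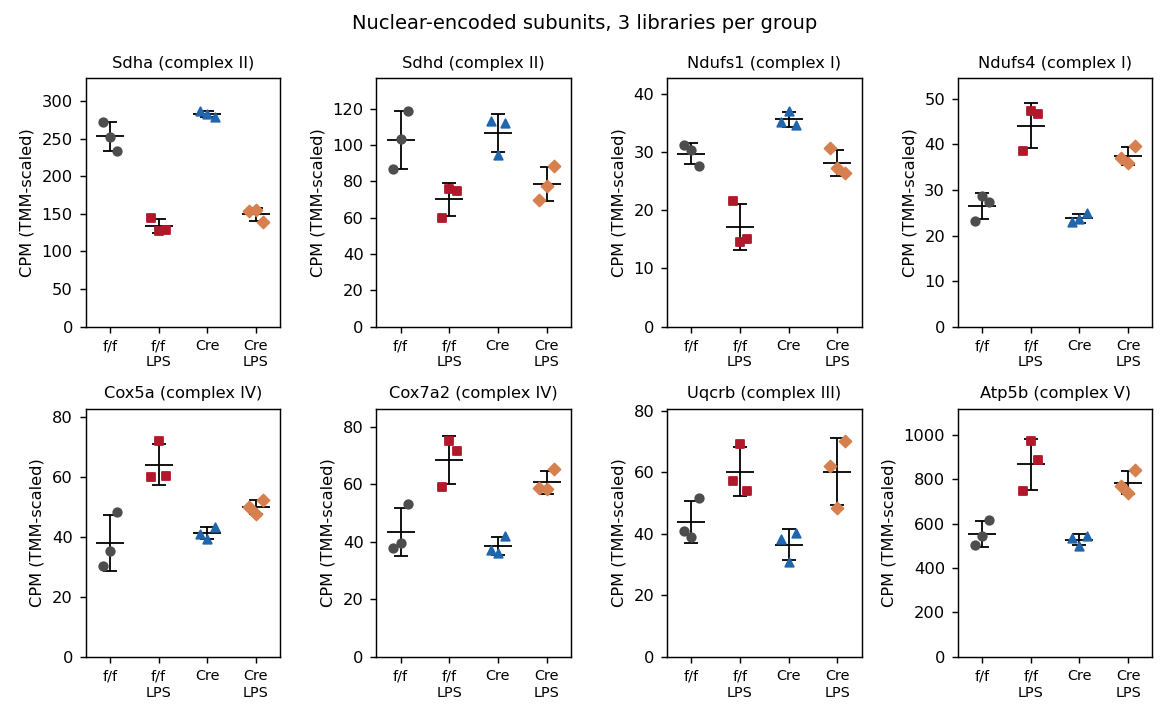
TMM-scaled CPM (y axes) of 8 nuclear-encoded subunits in the 12 libraries; f/f is Hdac3f/f and Cre is Lyz2-Cre-Hdac3f/f, points are libraries and bars are the mean and SD of 3. Sdha lies at 128 to 154 CPM in all LPS-treated libraries and at 234 to 287 CPM in all untreated ones, while Atp5b lies at 740 to 972 CPM with LPS and at 499 to 618 CPM without.

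Complex IV moved the other way. Of its 13 tested nuclear subunits, 9 rose and 1 fell in control cells (median 0.48), and 5 rose and 1 fell in Lyz2-Cre-Hdac3f/f cells (median 0.32). Cox7a2, a small structural subunit on the minus strand at chr9:79755361-79759878, had 37.8, 39.5 and 53.2 CPM in untreated and 59.1, 75.1 and 71.5 CPM in LPS-treated control libraries, and 37.1, 36.2 and 41.9 against 58.5, 58.2 and 65.3 CPM in Lyz2-Cre-Hdac3f/f libraries. The groups did not overlap in either genotype. It rose by 0.66 ± 0.14 in both (adjusted p = 0.00121 and 0.00148), and the call was lost only with library totals.

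Cox5a, a subunit on the matrix side of complex IV at chr9:57521274-57532426, rose most in control cells. It had 30.1, 35.1 and 48.3 CPM untreated and 60, 72 and 60.2 CPM with LPS, a log2 change of 0.76 ± 0.15 (adjusted p = 0.000695). In Lyz2-Cre-Hdac3f/f cells it went from 41, 39.4 and 43.2 to 50.1, 47.6 and 52.2 CPM, without overlap, but the log2 change of 0.28 ± 0.15 was not called (adjusted p = 0.135). The difference between the genotypes' responses was -0.48 ± 0.21 and was not called either (adjusted p = 0.195). The other complex IV subunits called higher in both genotypes were Cox5b, Cox6a1, Cox6c and Cox7c. They were at 0.48 to 0.60 in control and 0.41 to 0.58 in Lyz2-Cre-Hdac3f/f cells. Cox5b, Cox6c and Cox7c were named here after their values were seen. Cox6a1 had 281, 360 and 426 CPM untreated and 372, 610 and 510 CPM with LPS in control libraries, which overlap.

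Isoforms of the same complex IV subunit did not move together. Cox6a2, known as the heart and muscle form, was low, at 3.6, 5.79 and 8.03 CPM in untreated and 2.08, 3.12 and 2.4 CPM in LPS-treated control libraries. It fell by 1.20 on the log2 scale in control cells (SE 0.31, adjusted p = 0.00433) and by 0.80 in Lyz2-Cre-Hdac3f/f cells (SE 0.28, adjusted p = 0.0306), where Cox6a1, the form found in most tissues, rose by 0.48 ± 0.18 (adjusted p = 0.0342) and 0.51 ± 0.18 (adjusted p = 0.0294). The calls of Cox6a1 were lost without any of 4 and of 3 single libraries, and that of Cox6a2 in Lyz2-Cre-Hdac3f/f cells without any of 4. Per kb of gene length, Cox6a1 was at 507 and Cox6a2 at 8.54 CPM per kb in untreated control cells. Cox4i1, Cox6b1 and Cox8a were called higher in control cells (0.39, 0.48 and 0.44; adjusted p = 0.0484, 0.0199 and 0.0406) and not in Lyz2-Cre-Hdac3f/f cells (0.25, 0.34 and 0.32; adjusted p = 0.204, 0.095 and 0.143). The directions of Cox4i1, Cox6a1, Cox6b1 and Cox8a in control cells turned with library totals. Their counterparts Cox4i2, Cox6b2, Cox8b and Cox8c were too low to test. Among the Cox7a forms, Cox7a2l was not called (-0.21, adjusted p = 0.467 in control cells) and varied widely among untreated control libraries, from 73.3 to 182 CPM. Cox7a1, the other muscle form, was not called at 0.38 (adjusted p = 0.313) and -0.38 (adjusted p = 0.328). Ndufa4, once assigned to complex I and now known as a complex IV subunit, was counted apart; it was called higher in Lyz2-Cre-Hdac3f/f cells (0.38, adjusted p = 0.0472), a call lost without any of 5 of the 6 libraries, and had a value of 0.22 in control cells (adjusted p = 0.23). Its direction turned in both with library totals.

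**Figure D3:**
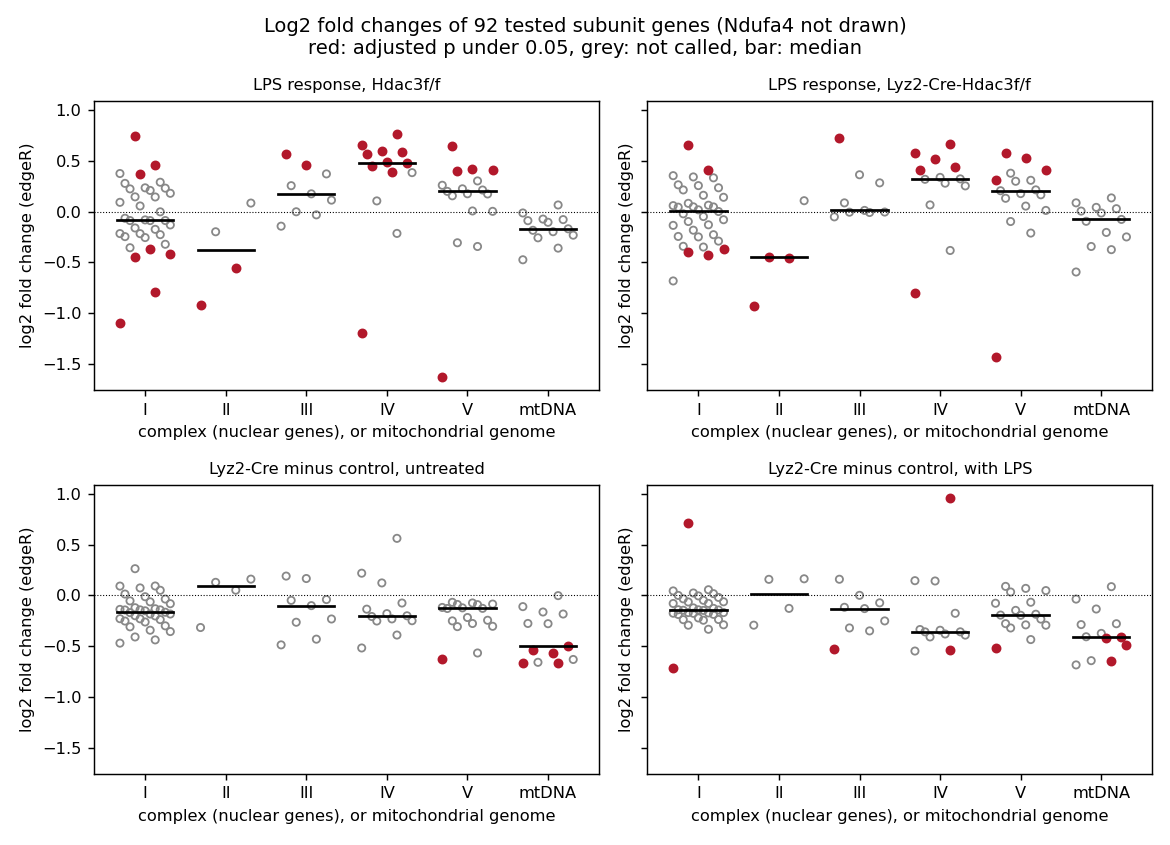
Log2 differences (y axes) of 92 tested subunits by complex and genome (x axes) in the 4 comparisons; each point is 1 gene, red points passed the edgeR test, bars are medians, and Ndufa4 is not drawn. In the LPS panels nuclear complex IV lies mostly above 0 (medians 0.48 and 0.32) and complex II mostly below (medians -0.38 and -0.45), and in the genotype panels the mitochondrial genes lie below 0 (medians over all 13 of -0.49 and -0.40) except mt-Nd4l with LPS, at 0.09.

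In complex V, 4 of 17 tested nuclear subunits rose and 1 fell in control cells (median 0.20), with the same counts in Lyz2-Cre-Hdac3f/f cells (median 0.20). Atp5b, the catalytic beta subunit at chr10:128083273-128090391, had 503, 544 and 618 CPM in untreated and 746, 972 and 885 CPM in LPS-treated control libraries. In Lyz2-Cre-Hdac3f/f libraries it had 536, 499 and 546 CPM untreated and 770, 740 and 842 CPM with LPS. All LPS-treated libraries were above all untreated ones, and the log2 changes were 0.65 ± 0.12 (adjusted p = 0.000371) and 0.57 ± 0.12 (adjusted p = 0.00117), both lost with library totals. The 3 genes for the identical mature c subunit of the rotor differed. Atp5g3 rose by 0.41 (adjusted p = 0.00385) and 0.31 (adjusted p = 0.0234), Atp5g1 was at 0.21 (adjusted p = 0.426) and 0.01 (adjusted p = 0.971), and Atp5g2 at -0.34 (adjusted p = 0.109) and -0.21 (adjusted p = 0.333). In untreated control cells Atp5g2 was the highest of them per kb, at 95.4 CPM per kb, against 35.1 for Atp5g3 and 5.37 for Atp5g1. Shared windows, 38.3% for Atp5g2, 0% for Atp5g3 and 11.1% for Atp5g1, make these levels uncertain. The rise of Atp5g3 turned with library totals in both genotypes, and in Lyz2-Cre-Hdac3f/f cells it was lost without any of 3 single libraries, at 0.32 (adjusted p = 0.0512) without the one that stood apart. The 1 gene that fell was Atp5s in both genotypes. It was counted here by its name, and whether it encodes a structural subunit was not checked. Atp5s, named after its values were seen, fell from 3.73, 4.43 and 4.09 to 1.11, 1.48 and 1.38 CPM in control cells, a log2 change of -1.62 ± 0.22 (adjusted p = 2.74e-05), and by 1.43 in Lyz2-Cre-Hdac3f/f cells (SE 0.21, adjusted p = 9.18e-05).

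In complex I, the largest complex, 3 of 36 tested nuclear subunits rose and 5 fell in control cells, and 2 rose and 3 fell in Lyz2-Cre-Hdac3f/f cells, with medians of -0.09 and 0.01. Ndufs4, an accessory subunit whose loss is known to cause complex I deficiency, lies on the minus strand at chr13:114287795-114388258. It had 23.2, 28.7 and 27.3 CPM in untreated and 38.5, 47.4 and 46.6 CPM in LPS-treated control libraries, and 22.9, 23.6 and 24.9 against 36.9, 35.8 and 39.6 CPM in Lyz2-Cre-Hdac3f/f libraries. No untreated library reached the LPS-treated range, and it rose by 0.74 ± 0.12 (adjusted p = 9.75e-05) and 0.66 ± 0.12 (adjusted p = 0.000359). Ndufs1, the largest iron-sulfur subunit of complex I, on the minus strand at chr1:63143596-63176833, went the other way in control cells, from 31.1, 30.3 and 27.6 to 21.6, 14.6 and 15.1 CPM (-0.79 ± 0.14, adjusted p = 0.000317). In Lyz2-Cre-Hdac3f/f cells it was at 35.2, 37.0 and 34.6 CPM untreated and at 30.7, 27.3 and 26.4 CPM with LPS. That log2 change of -0.34 ± 0.14 missed the threshold (adjusted p = 0.0539), and the difference between the responses was 0.45 ± 0.20 (adjusted p = 0.193).

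The largest fitted fall among complex I subunits with at least 10 CPM in control cells was that of Ndufa12, at -1.09 ± 0.43 (adjusted p = 0.0438), from 7.94, 33.5 and 14.3 to 7.09, 10.2 and 8.85 CPM. The groups overlapped, 1 untreated library held most of the level, and without that library, replicate 2, the change was -0.34 and was not called. Ndufs7, which carries an iron-sulfur cluster near the quinone site, was at -0.45 in control (adjusted p = 0.0247) and -0.43 in Lyz2-Cre-Hdac3f/f cells (adjusted p = 0.0345). These calls were lost without any of 4 single control libraries, and in Lyz2-Cre-Hdac3f/f cells without any one of the 6 libraries, with DESeq2 size factors and in the DESeq2 test. In complex III, 2 of 9 subunits rose in control cells and 1 in Lyz2-Cre-Hdac3f/f cells. Uqcrb, a small subunit near the quinone site, rose in both, from 40.9, 38.8 and 51.6 to 57.2, 69.1 and 53.9 CPM in control libraries (0.46 ± 0.16, adjusted p = 0.0282) and from 38.3, 30.8 and 40.3 to 62, 48.4 and 70.1 CPM in Lyz2-Cre-Hdac3f/f libraries (0.72 ± 0.17, adjusted p = 0.00248). The groups did not overlap in either genotype; the call in control cells was lost with library totals, where it was at -0.18, and without any of 3 single libraries. Uqcrq rose in control cells (0.56 ± 0.17, adjusted p = 0.0126), with overlapping libraries and a direction that turned with library totals.

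The promoters of 64 of the 80 tested nuclear subunits were found in the RefSeq table on GRCm38.p6 (300 bases around the start of the gene). The stretches below show the part of 3 of these windows upstream of any annotated exon. Capitals mark matches to the motifs searched, all of which are given with their shares below. Those in the printed bases were the palindromic core of the site of nuclear respiratory factor 1 (NRF1 core), the overlapping shorter NRF1 form TGCGCA, and the E-box CACGTG. All 3 genes were called higher with LPS in both genotypes, and they are shown because the printed stretches differ in which motifs they hold.
Cox6a1, chr5:115348982-115349129, minus strand: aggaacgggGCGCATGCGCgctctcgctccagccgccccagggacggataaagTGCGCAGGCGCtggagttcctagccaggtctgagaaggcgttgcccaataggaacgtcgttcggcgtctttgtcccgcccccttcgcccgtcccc
Cox5b, chr1:36691237-36691448, plus strand: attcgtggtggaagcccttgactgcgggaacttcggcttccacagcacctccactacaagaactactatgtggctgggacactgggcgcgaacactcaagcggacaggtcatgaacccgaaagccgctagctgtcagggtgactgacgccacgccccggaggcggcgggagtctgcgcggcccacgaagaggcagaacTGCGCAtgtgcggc
Atp5g3, chr2:73911327-73911576, minus strand: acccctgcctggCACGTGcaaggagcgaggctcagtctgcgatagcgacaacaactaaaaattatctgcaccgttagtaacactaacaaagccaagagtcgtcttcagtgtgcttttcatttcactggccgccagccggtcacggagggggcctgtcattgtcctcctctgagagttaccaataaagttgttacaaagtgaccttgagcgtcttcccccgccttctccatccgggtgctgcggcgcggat

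The Cox6a1 stretch holds 2 matches to the NRF1 core, 1 of which runs together with a TGCGCA. The Cox5b stretch holds 1 match to TGCGCA and none to the core, and the Atp5g3 stretch holds 1 E-box. Bases of the 300-base windows that are not printed hold 1 NRF1 core for Atp5g3 and 1 ETS core CCGGAAG for Cox6a1. The shares that follow are over the full windows. They are set against 12766 promoters matched by name to protein-coding genes with any count. The subunits had also passed the filter on low counts, which the 12766 need not have, so the 2 sets differ in expression as well. On either strand, the NRF1 core occurred in 25% of the subunit promoters and 8.72% of the 12766. TGCGCA, which can overlap it, occurred in 26.6% against 12.5%. The ETS core CCGGAAG, bound by the factor GABP, was in 23.4% against 15.3%, the YY1 core AAGATGGC in 12.5% against 3.89%, the cAMP response element TGACGTCA in 6.25% against 2.86% and CACGTG in 7.81% against 9.31%. Among the 16 matched subunits higher with LPS in either genotype, 25% held the NRF1 core and 31.2% CCGGAAG; among the 9 lower, the shares were 22.2% and 33.3%. A match describes letters in this window and not a bound site.

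Without LPS, 5 of the 13 mitochondrial transcripts were lower in Lyz2-Cre-Hdac3f/f than in control cells and none was higher: mt-Nd1, mt-Nd2 and mt-Nd4 of complex I, mt-Cytb of complex III and mt-Co2 of complex IV. All 13 had negative differences, with a median log2 difference of -0.49. Of the 80 nuclear subunits 0 were called higher (8 had an unadjusted p under 0.05 in either direction) and 1 was called lower, with a median of -0.16. Over all 14286 tested genes 5.12% were higher and 6.66% lower, or 11.8% in either direction, with a median of 0.03. Leaving out 1 library at a time gave 2 to 7 mitochondrial and 0 to 10 nuclear subunits lower, and 9 nuclear subunits were lower without the filter on low counts. The 5 stromal markers listed above, at 281 to 1352 CPM in untreated control and 14.6 to 129 CPM in untreated Lyz2-Cre-Hdac3f/f libraries, differ along the same split. So do 8 neutrophil markers, at 219 to 382 against 56.1 to 160 CPM, and, in the other direction, 6 mast cell and basophil markers, at 83.2 to 111 against 128 to 205.5 CPM. Their part in the result was not tested.

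mt-Cytb, at MT:14145-15288, had 580, 660 and 645 CPM in untreated control and 426, 357 and 411 CPM in untreated Lyz2-Cre-Hdac3f/f libraries, a log2 difference of -0.66 ± 0.13 (adjusted p = 0.0084). The mt-Nd1 gene, at MT:2751-3707, had 599, 635 and 643 against 415, 352 and 422 CPM (-0.66 ± 0.14, adjusted p = 0.0111). For both, each Lyz2-Cre-Hdac3f/f library was below each control library, and these calls held under every alternative run. Neither gene shares a 50-base window with another annotated transcript. The core complex I genes mt-Nd2, at MT:3914-4951, and mt-Nd4, at MT:10167-11544, were lower by similar amounts, mt-Nd2 with 308, 326 and 318 against 234, 188 and 233 CPM (-0.54 ± 0.13, adjusted p = 0.0174). mt-Nd4 had 266, 329 and 319 against 215, 190 and 211 CPM (-0.57 ± 0.13, adjusted p = 0.0161), also without overlap. Both calls were lost without control replicate 2, control replicate 3 or Lyz2-Cre-Hdac3f/f replicate 2.

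The most abundant of these transcripts, mt-Co1 at MT:5328-6872, did not separate the genotypes. It had 3897, 5347 and 5208 CPM in untreated control and 4391, 3589 and 3964 CPM in untreated Lyz2-Cre-Hdac3f/f libraries, which overlap (-0.28 ± 0.14, adjusted p = 0.216). Its share of all counts on the 13 genes was 65.6% ± 2.45 in untreated control and 69.5% ± 0.717 in untreated Lyz2-Cre-Hdac3f/f libraries (SD, n = 3 each). mt-Nd5 also overlapped (-0.28, adjusted p = 0.157), and mt-Nd6, which lies on the other strand of the mitochondrial chromosome, was at -0.11 (adjusted p = 0.629). These neighbours overlap on opposite strands, and whether the counting used strand is not given in the sources used here, so their counts may be mixed at the overlap. mt-Co2, whose sequence is wholly shared, was called at -0.49 ± 0.14 (adjusted p = 0.0423) from 11.8, 14.8 and 13.3 against 8.16, 8.72 and 11.4 CPM. Without the library that stood apart, 4 mitochondrial and 0 nuclear subunits were called lower. mt-Cytb (-0.71, adjusted p = 0.0207), mt-Nd1 (-0.70, adjusted p = 0.0308), mt-Nd2 (-0.59, adjusted p = 0.0359) and mt-Nd4 (-0.60, adjusted p = 0.0407) kept their calls, and mt-Co2 did not (-0.40, adjusted p = 0.151).

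**Figure D4:**
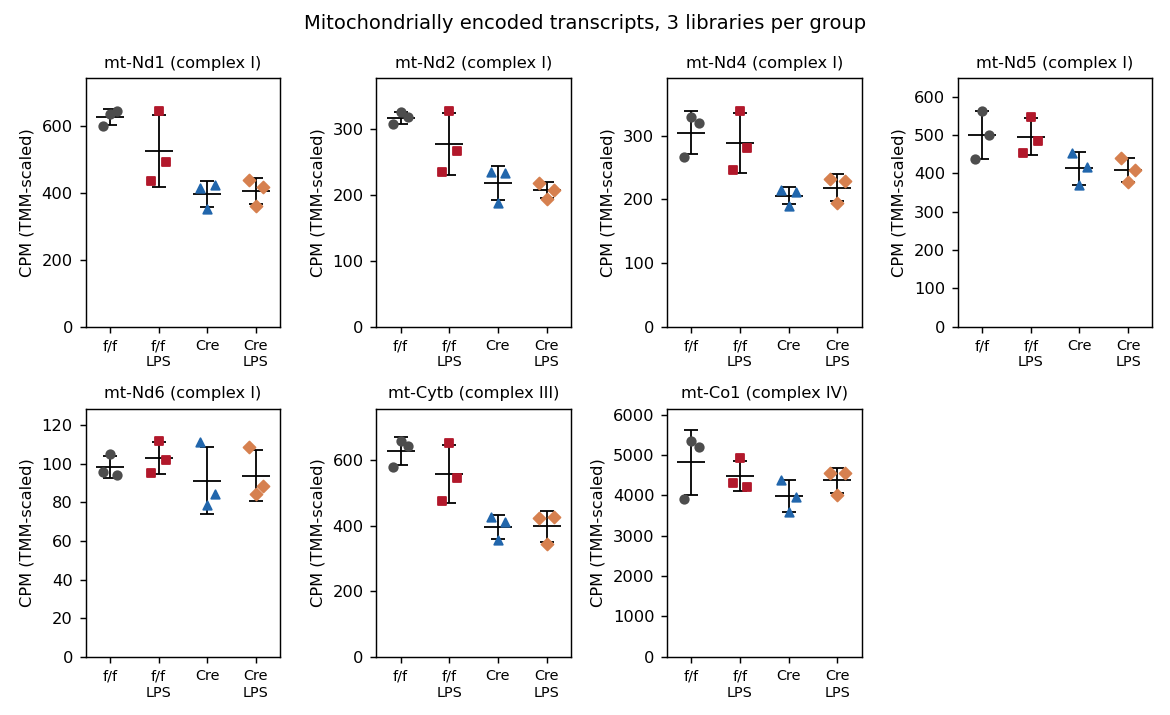
TMM-scaled CPM (y axes) of the 7 mitochondrial genes with the most counts in the 12 libraries. Here f/f is Hdac3f/f and Cre is Lyz2-Cre-Hdac3f/f, points are libraries and bars are the mean and SD of 3. The Lyz2-Cre-Hdac3f/f libraries lie below all control libraries for mt-Nd1 without LPS (352 to 422 against 599 to 643 CPM) and for mt-Cytb with and without LPS, and overlap them for mt-Co1.

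With LPS the same comparison gave 4 mitochondrial genes lower and 0 higher (7 of the 13 had an unadjusted p under 0.05), with a median of -0.40 and 12 of 13 negative. The 80 nuclear subunits gave 2 higher and 4 lower, with a median of -0.17, against 15.7% of all tested genes higher and 16.9% lower, or 32.6% in either direction. mt-Cytb had 477, 652 and 547 CPM in LPS-treated control and 426, 345 and 427 CPM in LPS-treated Lyz2-Cre-Hdac3f/f libraries (-0.49 ± 0.13, adjusted p = 0.0151). mt-Nd2 (-0.42 ± 0.13, adjusted p = 0.0241) and mt-Nd4 (-0.40 ± 0.13, adjusted p = 0.0322) were called again. The other was mt-Co3 (-0.65 ± 0.23, adjusted p = 0.046), whose counts were few. For mt-Nd1 the libraries overlapped, at 435, 644 and 491 against 437, 360 and 415 CPM (-0.37 ± 0.14, adjusted p = 0.057), and mt-Co1 was at -0.04 (adjusted p = 0.869). With library totals, or without LPS-treated control replicate 2 or LPS-treated Lyz2-Cre-Hdac3f/f replicate 2, 0 of the 13 were called. The 5 stromal markers were at 805 to 1671 CPM in the LPS-treated control and 32.1 to 42.9 CPM in the LPS-treated Lyz2-Cre-Hdac3f/f libraries, and their part was not tested here either. Library totals moved the median over all genes in this comparison from 0.02 to 0.29, the median of the 13 genes to -0.13 and that of the 80 nuclear subunits to 0.11, with 13 nuclear subunits higher and 0 lower. Of all 14286 tested genes, 4465 were then higher and 1329 lower. Leaving out 1 library at a time gave 0 to 20 nuclear subunits lower.

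Of the 6 subunits called without LPS, 4 were also among the 10 called with LPS, all with the same sign: mt-Nd2, mt-Nd4, mt-Cytb and Atp5k. Atp5k, the e subunit of the ATP synthase, which helps to pair ATP synthase complexes, was the nuclear subunit called lower without LPS. It had 16.5, 20.8 and 21.4 CPM in untreated control and 12.5, 12.1 and 13.5 CPM in untreated Lyz2-Cre-Hdac3f/f libraries (-0.62 ± 0.15, adjusted p = 0.021), without overlap; without the library that stood apart it was at -0.61 and not called (adjusted p = 0.068). With LPS it had 20.1, 27 and 25.2 against 16.7, 14.3 and 19.6 CPM (-0.52 ± 0.15, adjusted p = 0.0218).

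Among nuclear subunits with LPS, Ndufs1 was the largest complex I difference, higher in Lyz2-Cre-Hdac3f/f cells by 0.72 ± 0.14 (adjusted p = 0.00308); its values are given above and the libraries did not overlap. Cox6a2 was also higher, with 3.44, 6.07 and 5.21 CPM against 2.08, 3.12 and 2.4 CPM in LPS-treated control libraries (0.96 ± 0.31, adjusted p = 0.0328). Ndufa7 was lower, at 30.8, 30.6 and 34 against 37.8, 64.3 and 54.4 CPM (-0.71 ± 0.21, adjusted p = 0.0204). The hinge subunit of complex III, Uqcrh (-0.53 ± 0.17, adjusted p = 0.0352, with overlapping libraries), and the complex IV subunit Cox7c (-0.54 ± 0.18, adjusted p = 0.0415) were lower too. The calls of Ndufa7, Uqcrh, Cox7c and Atp5k with LPS were each lost with library totals and without any of 4 or 5 single libraries, and that of Cox6a2 without any of 4. Ndufs1 kept its call under every alternative run. All 4 complex II genes were within 0.29 of 0 on the log2 scale and none was called, with 0.16 for Sdha (adjusted p = 0.206). Their median was 0.02.

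The authors' deposited table, which gives log2 values of control over Lyz2-Cre-Hdac3f/f, has mt-Cytb at 0.693 in untreated cells (adjusted p = 8.25e-08) and 0.495 under LPS (adjusted p = 0.0157). In the authors' deposited table mt-Nd1 is at 0.693 (adjusted p = 3.28e-08) and 0.383 (adjusted p = 0.0938), so both genes are lower in Lyz2-Cre-Hdac3f/f cells there too. Without LPS that table has more nuclear subunits under the threshold than the edgeR fit. There, 4 mitochondrial and 8 nuclear subunit genes have an adjusted p under 0.05, against 5 and 1 called by edgeR. With LPS the deposited values give 3 mitochondrial and 7 nuclear genes, where edgeR called 4 mitochondrial genes. The 7 are Cox7c, Uqcrh, Ndufa7, Ndufs1, Atp5k and Cox6a2, which were the nuclear calls of edgeR too, and Ndufa4l2, which was too low to test.

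No subunit's response to LPS was called different between genotypes. The interaction test in edgeR gave 0 of 93, with 0 mitochondrial and 2 nuclear subunits at an unadjusted p under 0.05 and 0 by DESeq2, while 8.12% of all tested genes were called, 2.58% with a higher and 5.54% with a lower response in Lyz2-Cre-Hdac3f/f cells. The values for the best-counted mitochondrial genes were 0.29 ± 0.20 for mt-Nd1 (adjusted p = 0.43), 0.17 for mt-Cytb (adjusted p = 0.635) and 0.24 for mt-Co1 (adjusted p = 0.518).

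Because mitochondrial and nuclear transcripts of a complex are counted in the same library, their ratio does not depend on the scaling between libraries. The ratio is given here as log2 of summed counts per kb over the mitochondrial subunits divided by the same sum over the nuclear subunits, as a description without a test. For complex I it was 0.658, 0.526 and 0.317 in untreated and 0.430, 0.359 and 0.265 in LPS-treated control libraries, and 0.303, 0.133 and 0.159 against 0.352, 0.0617 and 0.0640 in Lyz2-Cre-Hdac3f/f libraries. Untreated control libraries were above untreated Lyz2-Cre-Hdac3f/f libraries, with the nearest pair at 0.317 and 0.303. With the median over subunits in place of the sum these 2 groups overlapped. LPS-treated libraries did overlap with untreated ones in both genotypes.

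For complex III, where mt-Cytb is the only mitochondrial subunit, the ratio was 0.431, 0.395 and 0.103 in untreated and -0.0143, -0.0513 and -0.127 in LPS-treated control libraries. In Lyz2-Cre-Hdac3f/f libraries it was -0.136, -0.236 and -0.219 untreated and -0.199, -0.446 and -0.457 with LPS. All Lyz2-Cre-Hdac3f/f libraries were below all control libraries, the nearest pair being -0.136 and -0.127; with the median in place of the sum they overlapped. Within the control genotype the LPS-treated libraries were below the untreated ones, and within Lyz2-Cre-Hdac3f/f the untreated and LPS-treated libraries overlapped.

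For complex IV the ratio was 1.12, 1.21 and 0.903 in untreated and 0.829, 0.418 and 0.421 in LPS-treated control libraries, and 1.16, 1.03 and 0.982 against 0.942, 0.769 and 0.735 in Lyz2-Cre-Hdac3f/f libraries. LPS-treated libraries were below untreated ones without overlap in each genotype, and the untreated groups of the genotypes overlapped. This ratio is nearly all mt-Co1 on the mitochondrial side. For complex V the mean ratio was -6.24, -6.56, -6.07 and -6.71 in the 4 groups, and it rests on mt-Atp6 and mt-Atp8, whose counts are uncertain as described above. Over all complexes the mean was 0.345 ± 0.135 in untreated control, 0.0236 ± 0.149 in LPS-treated control, 0.169 ± 0.0883 in untreated and 0.0677 ± 0.125 in LPS-treated Lyz2-Cre-Hdac3f/f libraries (SD, n = 3 each).

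**Figure D5:**
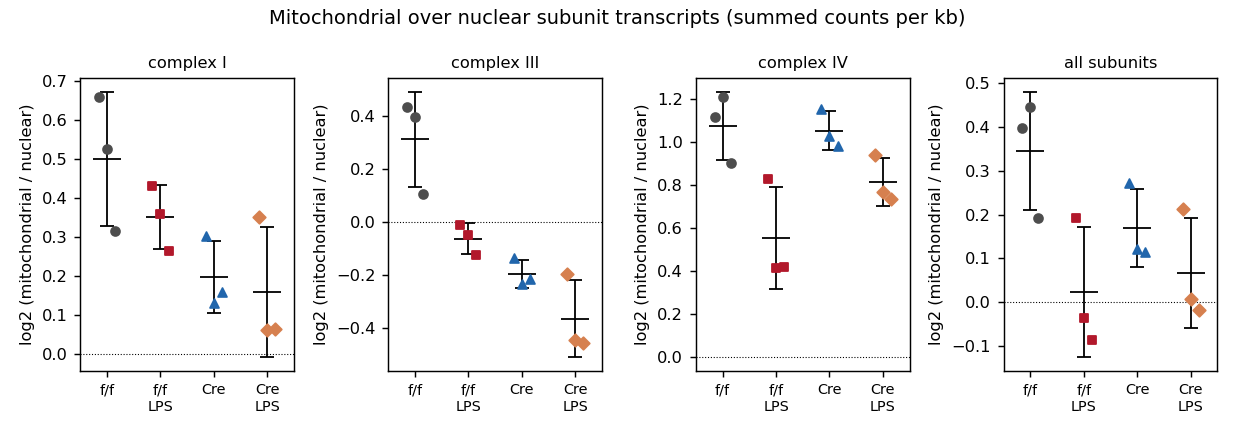
Log2 ratio of mitochondrially to nuclear-encoded subunit counts per kb (y axes) for complexes I, III and IV and for all subunits in the 12 libraries; f/f is Hdac3f/f and Cre is Lyz2-Cre-Hdac3f/f, points are libraries and bars are the mean and SD of 3. For complex III all 6 Lyz2-Cre-Hdac3f/f libraries (-0.457 to -0.136) lie below all 6 control libraries (-0.127 to 0.431), and for complex IV the LPS-treated libraries lie below the untreated ones of their genotype.

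Genes that serve the chain without being subunits gave the setting for these values. Of 42 tested assembly factors 6 rose and 15 fell with LPS in control cells (median -0.14), and 3 rose and 15 fell in Lyz2-Cre-Hdac3f/f cells (median -0.11), against 28.0% of all tested genes higher and 32.1% lower in control and 25.2% and 27.7% in Lyz2-Cre-Hdac3f/f cells. Sco1, which delivers copper to complex IV, rose by 2.21 ± 0.18 (adjusted p = 2.85e-07) and 0.95 ± 0.18 (adjusted p = 0.000514), and Tmem126b, a complex I assembly factor, fell by 2.27 (SE 0.14, adjusted p = 2.6e-08) and 1.63 (SE 0.14, adjusted p = 5.27e-07). Of 32 genes of mitochondrial gene expression 4 rose and 13 fell in control and 3 rose and 10 fell in Lyz2-Cre-Hdac3f/f cells, with medians of -0.30 and -0.19. Polrmt, the mitochondrial RNA polymerase, fell in both (-0.71, adjusted p = 0.00126, and -0.53, adjusted p = 0.00911). Tfam, which packages mitochondrial DNA and starts its transcription, was not called (-0.12, adjusted p = 0.394, and 0.16, adjusted p = 0.274). Lrpprc, which stabilises mitochondrial mRNAs, fell by 1.48 in control cells (adjusted p = 0.000848) and by 1.16 in Lyz2-Cre-Hdac3f/f cells (adjusted p = 0.00413). Between genotypes without LPS, 1 of these 32 genes was higher and 0 lower, against 5.12% and 6.66% of all tested genes. It was Pnpt1, an RNA-processing nuclease, at 0.46 (adjusted p = 0.0335). This call was lost with library totals, without the filter and without any one of the 6 libraries. With LPS 6 were higher and 1 lower, against 15.7% and 16.9% of all tested genes. Polrmt, Tfam and Lrpprc were not called between genotypes with or without LPS.

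Of 14 tested nuclear regulators of respiratory genes 8 rose and 1 fell with LPS in control cells, and 7 rose and 1 fell in Lyz2-Cre-Hdac3f/f cells (medians 0.70 and 0.48), against the same shares of all tested genes, 28.0% higher and 32.1% lower, and 25.2% and 27.7%. Nrf1 rose by 0.69 (adjusted p = 0.000124) and 0.62 (adjusted p = 0.000349), calls lost with library totals, and Hif1a, the oxygen-regulated factor, by 1.70 (adjusted p = 2.98e-05) and 1.74 (adjusted p = 3.17e-05). Cycs, which encodes the mobile electron carrier cytochrome c, rose by 1.99 ± 0.12 in control cells (adjusted p = 1.32e-08) and 1.32 ± 0.12 in Lyz2-Cre-Hdac3f/f cells (adjusted p = 8.15e-07), without loss under any alternative run. Among the 14 enzymes of the tricarboxylic acid cycle, which complex II belongs to, 3 rose and 8 fell in control cells and 3 rose and 6 fell in Lyz2-Cre-Hdac3f/f cells, with medians of -0.41 and 0.00451. Fh1, the fumarase that acts on the product of complex II, fell by 1.04 (adjusted p = 0.000125) and 0.57 (adjusted p = 0.00968). Suclg2, a subunit of the ligase that makes succinate, fell most in control cells, by 2.13 (adjusted p = 1.05e-06). Polrmt, Tfam, Lrpprc, Nrf1, Cycs and Fh1 were named for their known roles after their values were seen.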

How the data were processed

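RNA of 12 libraries was sequenced, and the deposited table holds whole-number counts per gene, FPKM values (normalized by the authors to gene length and library size), normalized group means (a signal per group, deposited by the authors), and the authors' log2 fold changes with their p-values. FPKM values and group means were not used. TopHat2 and mm10 are named per the submitters' processing notes; the counting tool, annotation release, strand setting and treatment of reads with several hits are not given in the sources used here. No sample column was left unused.

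From the deposited counts, genes were filtered with filterByExpr (14286 tested), scaled with TMM (factors 0.716 to 1.26) and tested with edgeR 4.0.16 (quasi-likelihood, R 4.3.3, limma 3.58.1), 1 coefficient per group over all 12 libraries, with Benjamini-Hochberg adjusted p under 0.05 as the call. Every adjusted p is from this fit unless the authors' table is named. Errors of log2 differences are standard errors, and CPM are TMM-scaled. Depth per library, 16553432 to 18706990 counts, sets the precision. Replicates differed beyond sampling noise (chi-square per gene 8.13 to 44.9), so none was counted as a duplicate. The scripts were tested on simulated data.

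Members and gene lists were chosen with earlier results of these data known. Named were the 13 mitochondrial genes, the 4 Sdh genes, isoform families, per comparison and complex the called subunit with the largest rise and fall at a mean of at least 10 CPM, and per pathway list the called gene with the largest rise and fall; other names were chosen after their values were seen. Alternatives were library totals, DESeq2 1.42.0, DESeq2 size factors, no filter, 2 groups only, a replicate block and leaving out each library.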

Additional observations from a re-analysis of the deposited data

Results flagged for a closer look

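No respiratory chain or ATP synthase subunit met a rule for a closer look. Among the genes that serve the chain, 7 differed between the genotypes in their response to LPS by the interaction test in edgeR. They were 2 of 42 tested assembly factors, 1 of 14 genes of mitochondrial dynamics and removal, and 2 of 21 carrier and coenzyme Q genes. The other 2 were among 14 nuclear regulators. Of 32 genes of mitochondrial gene expression and 14 tricarboxylic acid cycle enzymes 0 were called. Over all tested genes 8.12% were called. Sco1, which delivers copper to complex IV, rose from 8.89, 7.50 and 9.26 to 34.4, 33.0 and 51.2 CPM in control libraries and from 12.6, 13.3 and 12.1 to 20.3, 25.3 and 28.0 CPM in Lyz2-Cre-Hdac3f/f libraries, a difference of -1.26 ± 0.25 on the log2 scale (adjusted p = 0.00923). Coq8a, needed for coenzyme Q synthesis, rose from 7.81, 10.5 and 10.0 to 48.1, 69.8 and 47.0 CPM and from a mean of 10.8 to 27.9, 27.7 and 28.0 CPM (difference -1.17 ± 0.22, adjusted p = 0.00746). Max, the partner of Myc, rose by 1.13 in control cells (adjusted p = 4.67e-06) and was at 0.16 in Lyz2-Cre-Hdac3f/f cells (adjusted p = 0.309; difference -0.98 ± 0.17, adjusted p = 0.00551). These 3 calls held under every alternative run. Bnip3, a receptor for the removal of mitochondria, rose by 1.72 in control and 2.59 in Lyz2-Cre-Hdac3f/f cells (difference 0.87 ± 0.21, adjusted p = 0.0245). Ppargc1b, a coactivator of respiratory genes, was at -0.22 in control cells (adjusted p = 0.339) and fell by 1.24 in Lyz2-Cre-Hdac3f/f cells (difference -1.02 ± 0.27, adjusted p = 0.0348). Cycs, cytochrome c, rose by 1.99 and 1.32 (difference -0.67 ± 0.16, adjusted p = 0.0249). Foxred1, a complex I assembly factor, rose by 0.34 in control cells (adjusted p = 0.019) and fell by 0.32 in Lyz2-Cre-Hdac3f/f cells (adjusted p = 0.0288; difference -0.66 ± 0.16, adjusted p = 0.0247). The call of Bnip3 was lost without any of 5 single libraries, that of Cycs without any of 7, and those of Ppargc1b and Foxred1 without any of 8 and with library totals. The calls of Cycs, Ppargc1b and Foxred1 were among those lost without the untreated Lyz2-Cre-Hdac3f/f library that stood apart.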

How the results depend on the processing

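With library totals in place of TMM, LPS gave 0 nuclear subunits higher, 58 lower and 12 mitochondrial lower in control cells, and 1, 38 and 9 in Lyz2-Cre-Hdac3f/f cells. The genotype difference gave 3 nuclear lower without LPS, and 13 nuclear higher, 0 nuclear lower and 0 mitochondrial lower with LPS. The interaction gave 2 nuclear and 1 mitochondrial higher. Of all 14286 tested genes, 1014 were lower without LPS, 4465 higher and 1329 lower with LPS, and 1134 higher in the interaction. Among the genes named by the rule and called under either scaling, directions turned for Uqcrq (-0.0794), Cox6a1 (-0.16), Cox4i1 (-0.25), Cox8a (-0.20), mt-Nd6 (-0.58), Cox6b1 (-0.16), Atp5g3 (-0.23), Sdhc (-0.55), Ndufa4 (-0.42) and Dlst (-0.18) in control cells and for Ndufa4 (-0.00702), mt-Cytb (-0.38), mt-Nd1 (-0.36), mt-Nd4 (-0.30), mt-Nd6 (-0.34), Atp5g3 (-0.0835) and Sdhc (-0.28) in Lyz2-Cre-Hdac3f/f cells.

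Fitting only the 2 groups compared gave 11 nuclear higher and 5 lower with LPS in control cells, 28 higher in Lyz2-Cre-Hdac3f/f cells, 3 nuclear lower between genotypes without LPS, and 2 nuclear and 1 mitochondrial lower with LPS. DESeq2 size factors gave 5 nuclear lower with LPS in control cells. Without the filter 9 nuclear subunits were lower between genotypes, with and without LPS. The DESeq2 test gave 4 nuclear lower without LPS, and 10 nuclear and 7 mitochondrial lower with LPS. The cause of these shifts was not tested.

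Leaving out 1 library at a time, LPS gave 8 to 26 nuclear higher, 5 to 16 lower and 0 to 3 mitochondrial lower in control cells, and 5 to 12 higher and 3 to 6 lower in Lyz2-Cre-Hdac3f/f cells. The genotype difference gave 0 to 10 nuclear and 2 to 7 mitochondrial lower without LPS, and 1 to 2 nuclear higher, 0 to 20 nuclear lower and 0 to 4 mitochondrial lower with LPS; the interaction gave 0 to 1 nuclear in either direction. In control cells the 8 came without untreated replicate 1 or LPS replicate 2 and the 26 without LPS replicate 1, which also gave the 20; the 10 came without untreated control replicate 1. Without the untreated Lyz2-Cre-Hdac3f/f replicate 1 that stood apart, LPS gave 7 nuclear higher and 4 lower in that genotype, and 4 mitochondrial and 0 nuclear subunits were lower between genotypes.

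With the replicate number as a block, 4 nuclear subunits were lower between genotypes without LPS. Same-numbered libraries correlated at -0.404 to 0.217 and share only a number.

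With the median over members in place of the sum, differences of the log2 ratio were -0.116 for complex I between genotypes without LPS and -0.191 for complex III with LPS. For complex IV they were -0.574 with LPS in Lyz2-Cre-Hdac3f/f cells, -0.221 between genotypes without LPS and -0.0792 with LPS. They were -0.777 for complex V and -0.0128 over all subunits with LPS in control cells, and -0.183 over all between genotypes with LPS.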

Other observations

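The mitochondrial ribosomal RNAs were called higher with LPS under TMM scaling. mt-Rnr1, the small-subunit rRNA, had 164, 187 and 161 CPM in untreated and 219, 312 and 293 CPM in LPS-treated control libraries (0.69 ± 0.14, adjusted p = 0.000855) and rose by 0.56 ± 0.14 in Lyz2-Cre-Hdac3f/f cells (adjusted p = 0.00447). mt-Rnr2, the large-subunit rRNA, rose by 0.78 ± 0.16 (adjusted p = 0.000773) and 0.64 ± 0.16 (adjusted p = 0.00369). All 4 calls were lost with library totals, where mt-Rnr1 was at 0.04 and 0.17 and mt-Rnr2 at 0.14 and 0.26. As a share of all counts the ribosomal RNAs took 0.0343% ± 0.00409 in untreated and 0.0362% ± 0.00324 in LPS-treated control libraries, and 0.0359% ± 0.00386 and 0.0413% ± 0.00361 in Lyz2-Cre-Hdac3f/f libraries (SD, n = 3 each), with overlap in each genotype. The difference between ribosomal and messenger RNAs was not tested. Between genotypes without LPS mt-Rnr1 was at 0.21 (adjusted p = 0.327) and mt-Rnr2 at -0.22 (adjusted p = 0.376).

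Of the 7 subunit genes too low to test, Ndufa4l2, a hypoxia-inducible relative of Ndufa4, had 25, 6 and 1 counts in untreated control, 3, 8 and 20 in LPS-treated control, 0, 2 and 0 in untreated and 0, 0 and 0 in LPS-treated Lyz2-Cre-Hdac3f/f libraries. The authors' deposited table gives it an adjusted p of 0.0685 without LPS and 0.000641 with LPS. It was singled out after its values were seen. Cox6b2 had 68 counts over all 12 libraries, Cox4i2 41 and Cox8b 2, and Cox7b2, Cox8c and a second entry named Atp5o had 0.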
